A study of Sus scrofa with 30 samples.

Results

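The livers of 6 of the 30 pigs in the series were compared: 3 low birth weight pigs that had been feed restricted and then refed (UR at T3), and 3 low birth weight pigs that had never been restricted (UK at T3). They were chosen by the sample titles alone. All 6 were adolescent females selected at birth in a weight range of 0.8 to 1.1 kg, weaned at day 28 and then housed individually. Restricted pigs received 50% of ad libitum intake from day 76 to day 97, and both groups then ate ad libitum for the 5 weeks of refeeding. The time point T3 is day 103 in the sample labels and day 131 in the series text, so it is called T3 here. The 3 pigs of a group were picked at random for the arrays, and a litter supplied piglets of both birth weights, but the labels do not say which pigs were littermates. The diet held 13.6 MJ ME/kg during restriction and 14.1 MJ ME/kg during refeeding, in both groups. Set beside them are normal birth weight pigs (1.4 to 1.6 kg) at T3, restricted (NR) or control (NK), and UR and UK pigs sampled at T2, the end of restriction (day 97 in the labels, day 98 in the series text). For a few probe families the levels in NR and NK pigs at T2 and in pigs of both birth weights before restriction (T1) are given too. All groups had 3 pigs. Total liver RNA was labelled with Cy3, and each pig had an array of 60900 pig probes of 60 bases.

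The liver stores and releases glucose, makes and exports lipid, and produces most plasma proteins, and feed restriction is known to move it from fat and protein synthesis toward fatty acid oxidation and glucose production. After restriction ends, growing animals often grow faster than unrestricted ones, which is called compensatory growth. Low birth weight piglets are a common model of poor growth before birth and of its later effects on metabolism. The comparison at T3 asks whether a past restriction still marks liver transcripts after weeks of free feeding.

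The array probes carry identifiers and sequences with no gene name, and the rows of the table that the authors deposited carry human protein identifiers. Neither kind of identifier occurs in the gene tables used here, so no gene is named, and the liver identity of the samples could not be checked against hepatocyte markers. For the same reason the lists of lipid, glucose, growth, immune and other liver genes gave no counts. Results are therefore given for probes, and the sequences of 4 probes are shown so that they can be identified. Within each direction they had the 2 smallest unadjusted p-values among probes that changed that way in all 3 pairs of pigs, by at least 0.5 on the log2 scale on average; the first 2 listed were higher in UR and the other two lower.

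PigEx0003459: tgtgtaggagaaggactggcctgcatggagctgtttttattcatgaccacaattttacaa
PigEx0048539: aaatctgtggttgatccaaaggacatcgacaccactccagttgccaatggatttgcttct
PigEx0024507: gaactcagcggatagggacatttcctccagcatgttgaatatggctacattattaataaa
PigEx0011878: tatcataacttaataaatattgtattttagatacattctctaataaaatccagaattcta

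A further set is shown because it holds the most coherent change seen in a single pair of pigs. These are examples from 3 families of probes that share sequence, with the 16-base run most common in the family in capitals. A family was built from the probe sequences only, by linking probes that share at least 20 bases on the same strand, and is called here by its number of probes. From general knowledge of sequence, and with no annotation table, all 3 are of the kind that encodes immunoglobulin heavy chains: the framework of the variable region, the joining segment, and the leader with the start of the variable region. Immunoglobulin heavy chain is the antibody transcript of B cells and plasma cells, not of hepatocytes.

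188-probe family: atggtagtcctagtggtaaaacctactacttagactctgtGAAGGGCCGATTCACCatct
41-probe family: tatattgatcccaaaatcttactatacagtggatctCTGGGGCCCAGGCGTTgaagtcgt
16-probe family: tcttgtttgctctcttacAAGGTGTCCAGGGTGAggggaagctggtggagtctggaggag

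The capital runs occurred in 44, 28 and 12 probes of these families, and in no probe outside them. That is 0.0722%, 0.046% and 0.0197% of all probes on the array.

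Signal was well above background for 53.6% to 68.7% of the probes on the 6 arrays, with UR replicate 2 lowest. Each array was scaled by its 75th percentile of processed signal, which lay between 379 and 646. No spot was saturated. Replicate 2 of both groups lay on 1 slide and replicate 3 of both groups on another, while the replicate 1 arrays lay on separate slides. Replicates 1 and 2 of both groups were scanned on the same day, and replicate 3 of both groups on another. What sets replicate 3 apart from the others therefore cannot be told apart from its slide and scan day. Levels correlated across probes at 0.948 to 0.987 between arrays of the same group. Between UR and UK arrays the correlation was 0.979 and 0.990 on a shared slide and 0.948 to 0.988 on different slides. Probes are not independent replicates. Of the sum of squares over the 6 arrays, replicate number held 66.3% (2 degrees of freedom), feeding 11.2% (1) and the rest 22.5% (2). Per degree of freedom, feeding thus held about as much as the rest.

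No probe passed the test of past restriction against control. In limma with the replicate number as a pair, 0 of 38087 probes (0%) had a Benjamini-Hochberg adjusted p under 0.05, and the smallest adjusted p was 0.318. An unadjusted p under 0.05 was reached by 1424 probes, 3.74% of those tested, below the 5% that the threshold would give with no difference at all. Of these, 328 were higher and 1096 lower in UR. The split depended on the scaling and on the filter. It was 504 higher and 742 lower after quantile normalization, and 525 and 589 after normexp background correction. It was 391 and 563 among probes well above background on all 6 arrays, and 800 and 878 with no filter on dim probes. Without the pairing limma called 0 probes, and 409 (1.07%) were below 0.05 before adjustment. The median standard error of a difference was 0.22 on the log2 scale, so the median 95% interval reached 0.54 to either side, a 1.45-fold change, and 96.4% of probes had an interval that reached less than 1 to either side. Differences smaller than these could not be resolved with 3 pigs per group. These intervals are for single probes before adjustment, and larger differences also missed the adjusted threshold. PigEx0048539, at 1.44, had an adjusted p of 0.976 in limma, and PigEx0024507, at -2.78, one of 0.318.

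**Figure D1:**
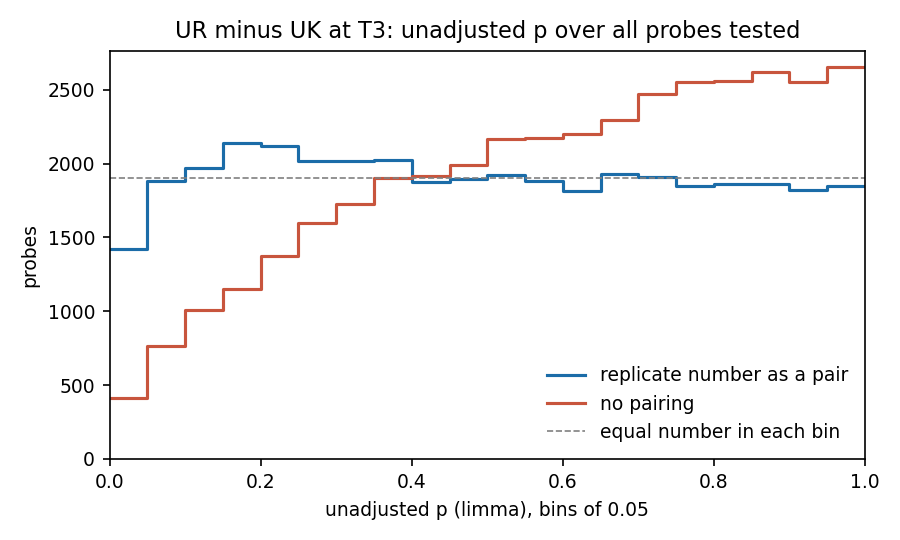
Number of probes (y axis) by unadjusted p from limma (x axis, bins of 0.05) for UR minus UK at T3, with replicate number as a pair (blue) and without pairing (red); the dashed line is an equal number in each bin. The lowest bin held 1424 probes with the pairing and 409 without it, both under the dashed line.

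The table that the authors deposited gave the same count of calls. Of its 19864 rows, 0 (0%) had an adjusted p under 0.05 in limma with the pairing, with a smallest adjusted p of 0.912, while 731 (3.68%) were below 0.05 before adjustment, of which 386 were higher and 345 lower in UR. A single scanner probe matched 6515 of these rows, and among those probes 229 had an unadjusted p under 0.05 and 0 were called.

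Within each pair of pigs, by contrast, many probes differed. At least 2-fold differences between the UR and the UK pig were found for 2716 probes (7.14%) in pair 1, for 1360 (3.58%) in pair 2 and for 2788 (7.33%) in pair 3, out of 38033 probes with a value on all 6 arrays. The standard deviation of the differences over probes was 0.56, 0.44 and 0.59 on the log2 scale in the 3 pairs. In all, 6063 probes differed at least 2-fold in at least 1 pair. Only 3 probes were at least 2-fold higher and 22 at least 2-fold lower in UR in all 3 pairs, and among probes well above background on all 6 arrays these numbers were 2 and 5.

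The differences of one pair of pigs showed almost no relation to those of another. Across probes, the differences of pairs 1 and 2 correlated at -0.03, those of pairs 1 and 3 at -0.06 and those of pairs 2 and 3 at 0.09. All 3 pairs had the same sign for 25.1% of the probes, 4235 higher and 5322 lower. Among the 32164 probes well above background on every UR and UK array, the numbers were 4011 higher and 3921 lower. The excess of lower probes in this count was thus absent there. The levels of the UR and UK pigs did not overlap for 1027 probes that were higher in UR (2.7%) and 928 that were lower (2.44%). With 3 pigs per group, some probes share a sign or separate by chance alone, so these shares are not read as a change.

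**Figure D2:**
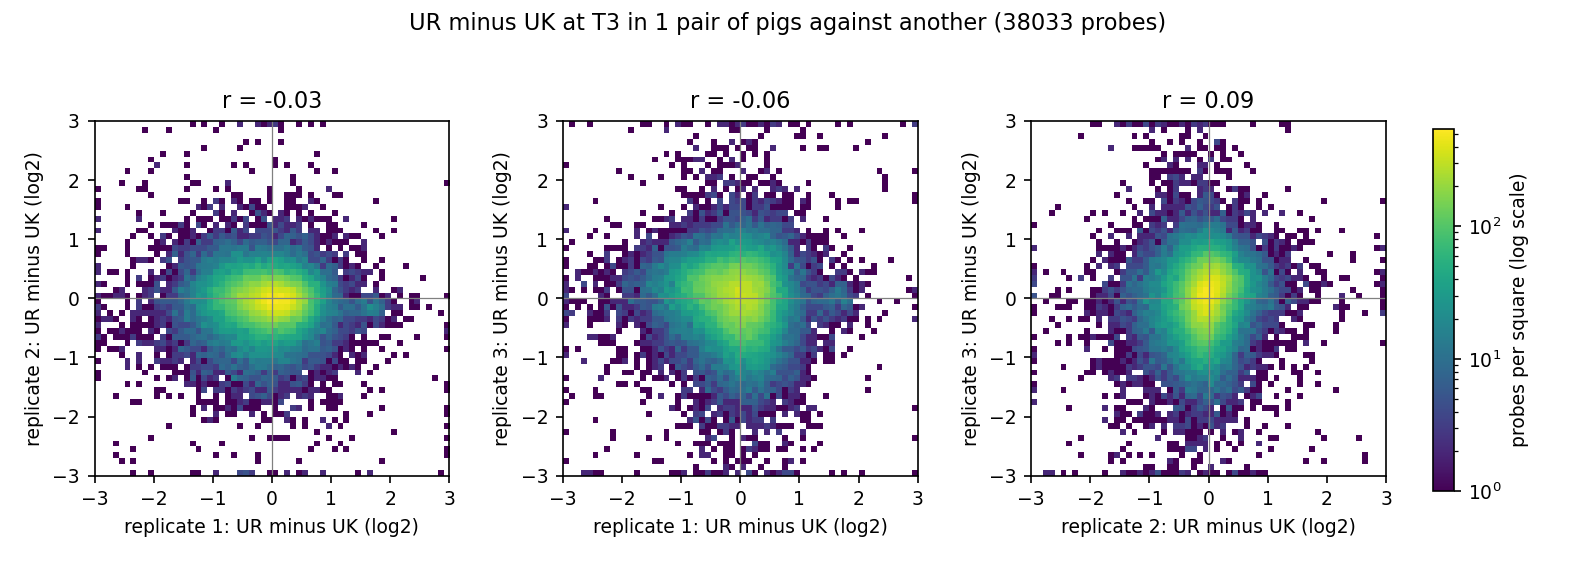
Difference between the UR and the UK pig at T3 (log2) in one pair on the x axis and in another on the y axis, with the number of probes in each square as colour on a log scale; differences beyond 3 are drawn at the edge. The clouds are centred near 0 without a tilt, with r of -0.03, -0.06 and 0.09, and a small arm to the right in both panels with pair 1 on the x axis holds probes higher by more than 1 in pair 1 only.

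Probes that share sequence showed how alike separate probes measured a difference between the 2 arrays of a pair. From each of 412 groups of probes sharing at least 30 bases on the same strand, a pair of probes was taken, 824 probes in all. Their differences between the UR and the UK pig correlated at 0.71 in pair 1, at 0.55 in pair 2 and at 0.82 in pair 3, with median gaps of 0.17, 0.10 and 0.14 on the log2 scale. The same 824 probes correlated at -0.02, -0.02 and 0.06 between different pairs of pigs. Probes sharing bases on opposite strands (64 groups) correlated at 0.07, -0.00 and 0.04 within pairs. A difference between 2 arrays was thus measured alike by separate probes of a sequence, while differences of separate pairs of pigs were nearly uncorrelated. Both probes lay on the same 2 arrays, so a difference between pigs and a difference between arrays cannot be told apart here.

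**Figure D3:**
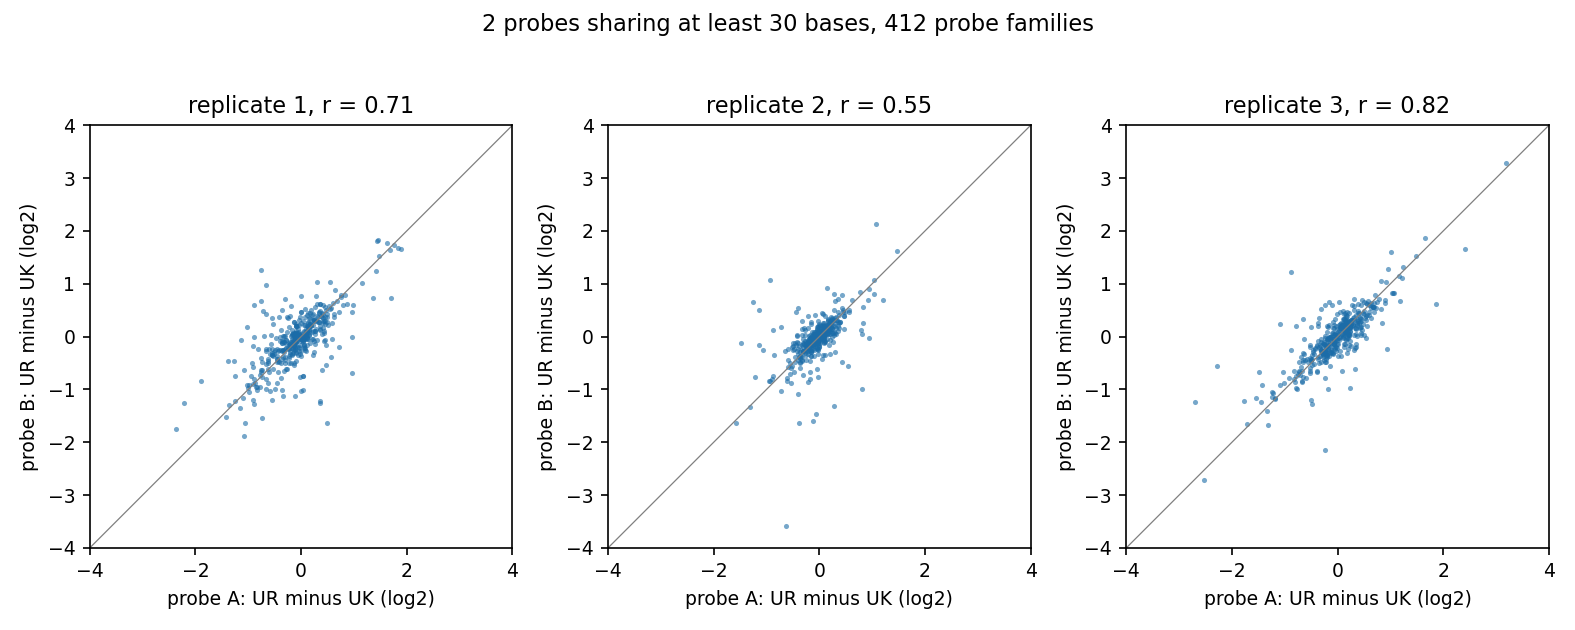
Difference between the UR and the UK pig at T3 (log2) for probe A on the x axis and probe B on the y axis, which share at least 30 bases, with 1 point for each of 412 groups of probes and 1 panel for each pair of pigs; the grey line marks equal differences. Points follow the line in all 3 panels, with r of 0.71, 0.55 and 0.82.

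The antibody-like families showed the clearest case of a difference that separate probes measured alike. On the array, 14 families held at least 10 probes, and 7 of them had at least 10 tested probes. In the 188-probe family, of which 183 probes were tested, the median level on the log2 scale was 1.12, 0.26 and -0.42 in UR replicates 1, 2 and 3 and -0.54, 0.39 and -0.37 in UK replicates 1, 2 and 3. UR replicate 1 was thus the highest and UK replicate 1 the lowest of the 6, and the groups overlapped. The median difference of its probes was 1.67 in pair 1, with 179 of the 183 at least 2-fold higher in UR, and -0.19 and -0.02 in pairs 2 and 3.

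The other antibody-like families followed it. The 41-probe family, with 32 tested, had a median difference of 1.66 in pair 1, -0.14 in pair 2 and 0.24 in pair 3. The 16-probe family, all tested, had 1.57, -0.04 and -0.03. Under quantile normalization and normexp correction the medians in pair 1 lay between 1.35 and 1.66 in the 3 families. Together these families are 231 of the tested probes (0.607%), yet they hold 224 of the 725 probes that were at least 2-fold higher in UR in pair 1 (30.9%). In pairs 2 and 3, 1 of the 231 differed at least 2-fold in each. In bulk RNA, fewer cells of a type and less RNA per cell cannot be told apart. The families were described after the values had been seen, so no test is given.

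Antibody-like transcripts also differed widely between pigs elsewhere in the series. The median level of the 188-probe family lay between -0.60 and 0.94 in the 3 NR pigs at T2 and between -1.67 and -0.77 in the 3 NK pigs, and between -2.33 and -0.99 in low birth weight pigs before restriction. At T2 the UR pig was higher than the UK pig by 0.32 and 1.50 in pairs 1 and 2, and in pair 3 the difference was -0.42. In normal birth weight pigs at T3 the differences were -0.99, 0.32 and -0.06. For NR against NK at T2 they were 1.71, 1.71 and 0.18, while in pair 3 of that comparison the 41-probe family was at -0.12 and the 16-probe family at -0.01.

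**Figure D4:**
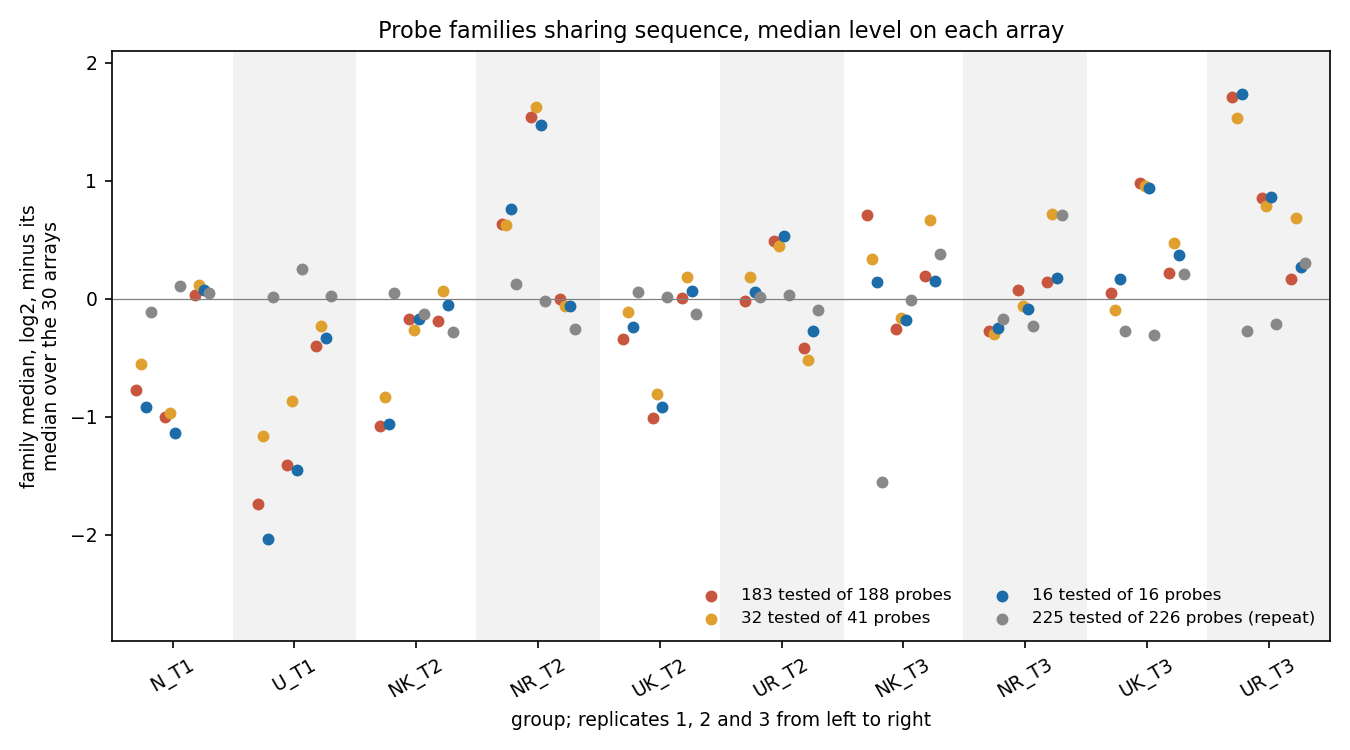
Median log2 level of 4 probe families on each of the 30 arrays, minus the family's own median over the arrays (y axis), by group (x axis) with replicates 1, 2 and 3 from left to right; red, yellow and blue are the antibody-like families of 188, 41 and 16 probes, grey a family of 226 probes of repeat sequence. The antibody-like families move together from array to array, with UR replicate 1 at T3 among the highest arrays, and the repeat family does not follow them.

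The other large families did not share this pattern. The largest, 226 probes, is of a kind known as a short interspersed repeat of the pig genome, and its 225 tested probes had median differences of -0.04, 0.06 and 0.13 in the 3 pairs. A 94-probe family had medians of -0.45, 0.02 and -0.02 over 85 tested probes. A 58-probe family, of the zinc finger kind by its sequence, had -0.46, -0.40 and -0.25 over 36 tested probes. It was well above background in 67.5% of its spots on the 6 arrays. An 84-probe family and a 25-probe family, of the olfactory receptor kind, were well above background in 16.9% and 2.0% of spots on the 6 arrays. Of their probes, 11 and 0 were tested, and the 11 had medians of -1.13, -0.62 and -0.17. Over all probes, 5812 passed the filter through the UK group alone and 61 through the UR group alone. Such a filter favours dim probes that were high in UK. The medians of the 84-probe and 58-probe families are therefore not read as a change.

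The probes that were closest to a common change in all 3 pairs are described next, as values that did not pass the test. PigEx0003459 had log2 levels, relative to the array's 75th percentile, of 3.94, 3.95 and 4.60 in UR replicates 1, 2 and 3 and of 2.86, 2.23 and 3.22 in UK. All UR pigs lay above all UK pigs. The mean difference was 1.39 (SE 0.21, n = 3 pairs; limma unadjusted p 0.000602, adjusted p 0.976), a 2.63-fold higher level. It was above background on all 30 arrays. Its level also varied widely within other groups at T3, from 1.98 to 4.34 in NK and from 1.97 to 3.94 in NR. In normal birth weight pigs at T3 the differences were -0.01, -0.40 and -0.78, and in low birth weight pigs at T2 they were -0.47, 1.16 and 0.93.

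PigEx0048539 had levels of 5.10, 4.23 and 5.30 in UR and of 3.09, 3.09 and 4.15 in UK. Every UR pig again lay above every UK pig, though UR replicate 2 and UK replicate 3 lay close. The mean difference was 1.44 (SE 0.25, n = 3 pairs; limma adjusted p 0.976), with 2.02, 1.14 and 1.15 in the pairs. In normal birth weight pigs at T3 the restricted pig was the lower one in each pair, by differences of -1.65, -1.17 and -0.95. At T2 the differences in low birth weight pigs were -0.53, 1.70 and 0.07. Its levels at T3 ranged from 3.63 to 5.19 in NK and from 1.975 to 4.24 in NR. In UR at T2, replicates 1, 2 and 3 rose in the same order for PigEx0003459 (2.20, 3.03 and 5.01) and PigEx0048539 (2.85, 4.02 and 4.98). In NK at T3 the order was not the same. Whether the 2 probes are separate cases was not tested.

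PigEx0024507 had levels of -4.56, -4.74 and -5.83 in UR and of -1.98, -2.00 and -2.79 in UK. The groups lay far apart, but the probe was dim, well above background on all 3 UK arrays and on 1 of the 3 UR arrays. The mean difference was -2.78 (SE 0.20, n = 3 pairs; limma unadjusted p 8.36e-06, adjusted p 0.318), which was the smallest p of all probes. After normexp background correction the difference was -1.11. At T2 the differences in low birth weight pigs were 0.09, 0.31 and 1.18, and neither array of pair 2 was well above background there. In normal birth weight pigs at T3 they were 0.92, -0.80 and 1.07, with the NK array of pair 1 not well above background.

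PigEx0011878 was also dim, with levels of -4.32, -6.03 and -6.43 in UR and of -2.56, -3.84 and -3.79 in UK, and again 3 UK arrays and 1 UR array were well above background. The groups did not overlap. The mean difference was -2.20 (SE 0.24, n = 3 pairs; limma adjusted p 0.976), and -0.53 after normexp correction. In normal birth weight pigs at T3 the measured differences were 2.75, 1.13 and 0.33, but in pair 1 the NK array and in pair 3 both arrays were not well above background, so only that of pair 2 lies between measured levels. At T2 the differences in low birth weight pigs were 0.11, -1.82 and 0.50, with only pair 3 well above background on both arrays. Of the 4 probes, this one was the poorest in G and C, at 18.3% against a median of 45.0% on the array. None of the 4 shared more than 14 bases in a run with another probe.

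**Figure D5:**
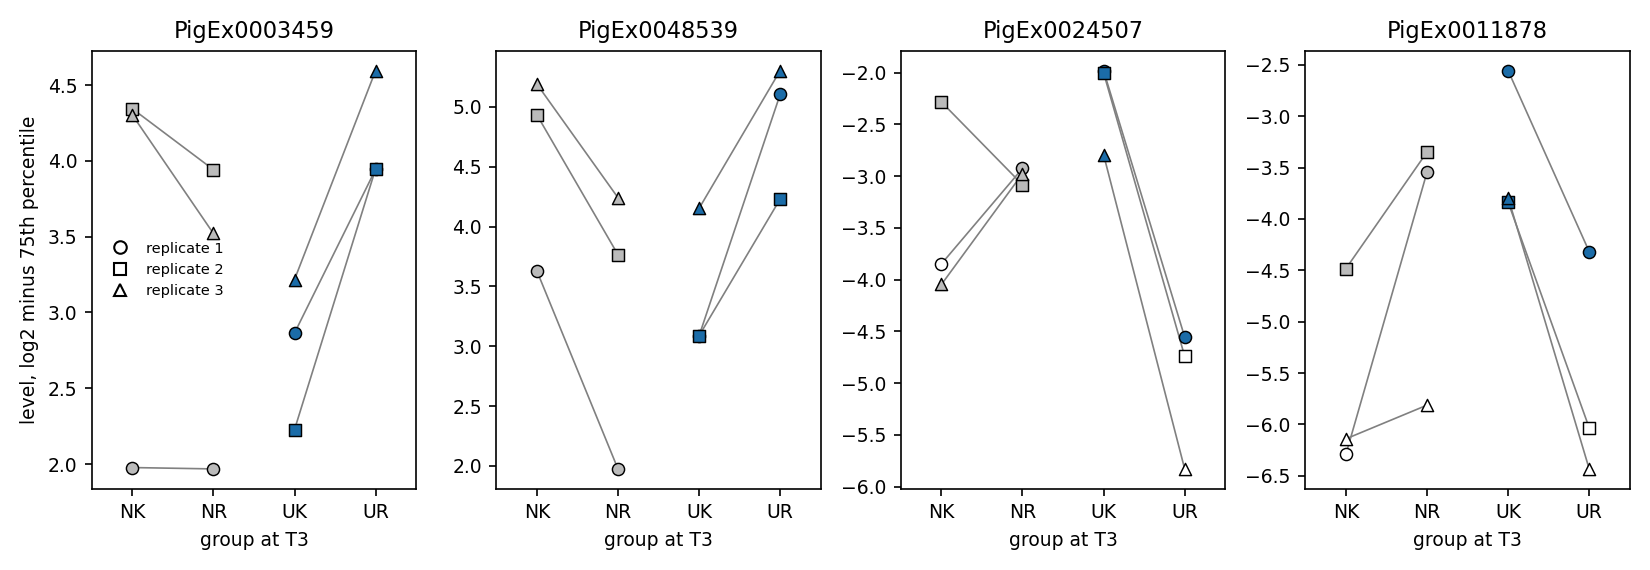
Log2 level minus the array's 75th percentile (y axis) of 4 probes at T3 by group (x axis), with lines joining pigs of the same replicate number; filled symbols are well above background and white ones are not, blue is low and grey normal birth weight. The probes were chosen because the 3 low birth weight pairs changed the same way, so those 3 lines run the same way by choice. In normal birth weight pigs, which played no part in the choice, the lines run flat, mixed or the opposite way.

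The balance of higher and lower probes differed with the filter on signal near background. Of the 38088 probes kept, 32215 were well above background on all 6 arrays, 5812 passed through the UK group alone and 61 through the UR group alone. There were 168 probes above background on all 3 UK arrays and on no UR array, against 1 the other way; without replicate 2, whose UR array had the fewest probes above background, the numbers were 269 and 100. In the fifth of probes with the lowest level the median difference was -0.21, -0.22 and 0.04 in pairs 1, 2 and 3, and in the fifth with the highest level it was 0.03, 0.02 and 0.08. In the fifth richest in G and C it was -0.25, 0.08 and 0.22. Among probes well above background on all 6 arrays, 4011 were higher and 3921 lower in all 3 pairs. Of these probes, 391 higher and 563 lower ones had an unadjusted p under 0.05 in limma. With no filter on dim probes, 800 higher and 878 lower ones of 60899 did. The part of signal near background and of G and C content in the excess of lower probes was not tested.

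Whether past restriction acted differently by birth weight was tested as the difference between UR minus UK and NR minus NK at T3. In the authors' table, 0 of 19864 rows (0%) had an adjusted p under 0.05 in limma, while 1001 (5.04%) were below 0.05 before adjustment; on scanner probes the counts were 0 and 2143. The 1001 became 598 with no pairing and 1571 without the replicate 3 pigs NR and NK, with 0 calls in each. In normal birth weight pigs alone limma called 0 probes and 0 rows, with 2140 probes (5.62%) and 1143 rows of the authors' table (5.75%) below 0.05 before adjustment. Their pair differences correlated at 0.30, 0.12 and 0.05. Pair 1 of that comparison stood apart, with 30.2% of the probes at least 2-fold different; its NK array was scanned on a day of its own.

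At the end of restriction (T2), other low birth weight pigs had been compared in the same way. In the authors' table, 0 rows (0%) had an adjusted p under 0.05 in limma for UR minus UK, and 1250 (6.29%) were below 0.05 before adjustment; on scanner probes the counts were 0 and 2772. The pair differences at T2 correlated at 0.10, 0.08 and -0.00. The groups did not overlap for 1983 probes higher (5.22%) and 2279 lower (5.99%) in UR. Some probes separate by chance alone in groups this small, so these shares are not read as a change either. The change of the difference from T2 to T3 was past an adjusted p of 0.05 in limma in 0 rows (0%), with 1127 (5.67%) below 0.05 before adjustment, and 0 and 2384 on scanner probes.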

How the data were processed

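Per the file headers, Agilent Feature Extraction 10.5.1.1 made the scanner files; the processed signal in them is intensity after background subtraction, with no normalization between arrays. The table that the authors deposited holds intensity values, and how they were made is not given in the sources used here. Its columns within T3 have like distributions, and 6515 of 19864 rows matched 1 probe (log2 values within a root mean square of 0.05) after quantile normalization. The deposited flags for outlier spots and for signal well above background were used as they stand.

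Control spots were left out, outlier spots were set to missing, and log2 of the processed signal minus the array's 75th percentile was taken. A probe was kept if well above background on all 3 arrays of UR or UK at T3. Differences were fitted with limma 3.58.1 in R 4.3.3 (lmFit, eBayes, two-sided, Benjamini-Hochberg adjustment, called under 0.05), with the replicate number as a pair on the 6 arrays, which leaves 2 residual degrees of freedom before the prior. The pairing was asked for by the rule for choosing these samples. Deviations of same-numbered arrays from their group means correlated at 0.17, 0.47 and 0.66 across probes, though UR replicate 1 correlated more with UK replicate 2 (0.46). The labels do not say that the numbers mark litters or days. The number of arrays limits the precision. The p-values rest on how much the differences varied between the 3 pairs, moderated by a prior from all probes (4.03 degrees of freedom). With 1 array per pig, variation between pigs and variation between arrays were not separated.

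The rule for naming genes was written for table rows with a gene name and could not be applied to them. It was applied to scanner probes, with 2 in each direction instead of 10: the smallest unadjusted p among probes whose 3 pairs all changed that way, by at least 0.5 on average. Samples, probes and lists were chosen with earlier results of these data known. Alternatives were quantile normalization, normexp (offset 50), other filters, slide as a block, no pairing, more arrays in the fit, array weights, the matching probes and leaving out each pair. Scanner probes for the 3 secondary comparisons, the settings for the pair correlations and the probe families were added after seeing the data. Python 3.11.15, pandas 2.3.3, numpy 2.4.6 and matplotlib 3.10.9 were used for the rest.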

Additional observations from a re-analysis of the deposited data

Results flagged for a closer look

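In 4 of the 8 combinations of a named probe with normal birth weight pigs at T3 or low birth weight pigs at T2, every pair of pigs had the opposite sign to every pair of UR and UK at T3; in the other 4 the signs were mixed. Between birth weights, the difference in effect at T3 was 1.79 for PigEx0003459, where pair 1 of the normal birth weight pigs was at -0.01, and 2.69 for PigEx0048539, each with an adjusted p of 0.712 in limma. The values of the dim probes are less certain, since both passed the filter through the UK group alone and were well above background on 1 of the 3 UR arrays at T3. For PigEx0011878 the measured difference between birth weights was -3.60 (adjusted p 0.712 in limma), with NK replicates 1 and 3 and NR replicate 3 not well above background. For PigEx0024507 the measured change from T2 to T3 in low birth weight pigs was -3.31 (adjusted p 0.45 in limma), with replicate 2 of both groups at T2 not well above background. None of these passed the threshold, and the probes had been chosen for a common direction at T3.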

How the results depend on the processing

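All alternatives gave 0 calls in limma for UR minus UK at T3 on scanner probes and in the authors' table. The same held for the birth weight difference, the T2 comparison and the change from T2 to T3. On scanner probes the smallest adjusted p in limma for UR minus UK at T3 was 0.318 in the main fit. It was lower without replicate 2 (0.0724), with array weights on all T3 arrays (0.186) and without replicate 3 (0.259). In the other settings it was higher. The count of scanner probes at an unadjusted p under 0.05 (1424) moved to 409 with no replicate block, to 801 with all T3 arrays and a replicate block within birth weight, to 363 with all T3 arrays and no replicate block, to 642 with all 30 arrays and no replicate block, and to 3119 with array weights on all T3 arrays and a replicate block within birth weight. Leaving out 1 pair gave 1292 to 2070, the highest without replicate 1; the slide block has the same fit as that. In the authors' table the count for the birth weight difference (1001) was 598 with no replicate block and 1571 without NR and NK replicate 3, that for UR minus UK at T3 (731) was 417 with no replicate block and 379 with all T3 arrays and none, and that for the change from T2 to T3 (1127) was 675 with no replicate block. The cause was not tested. The mean correlation between pair differences (-0.0012) stayed between -0.0512 and -0.0001. The 4 named probes kept their direction in all settings that kept them. With 3 pairs, small changes and changes of dim probes are beyond what these arrays resolve. Larger changes of single probes can also miss the adjusted threshold.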
